A study of Mus musculus with 31 samples.

Results

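The BCL2 family genes described here are 9 of the 45706 gene identifiers counted in each library. They are the survival genes Bcl2, Bcl2l1 and Mcl1, the BH3-only genes Bcl2l11, Bad, Bid, Bmf and Bik, and the pore former Bak1. They were chosen by symbol, and each symbol matched 1 identifier. The libraries are bulk RNA-seq of bone marrow cells from C57BL/6 mice, 10 weeks old, which received 1 mg of β-glucan (a glucose polymer of fungal cell walls) or PBS into the peritoneum. Sorted long-term stem cells of the marrow (HSC) were taken 7 days later (3 β-glucan and 4 PBS libraries) and 28 days later (4 and 4). The next stage, multipotent progenitors (MPP), was taken at day 28 alone (4 and 4). In a further set of HSC (4 and 4), the mice of both groups also received 150 mg/kg of 5-fluorouracil (5-FU), a drug that kills dividing cells, on day 7, and were sampled 14 days after it.

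Proteins of the BCL2 family decide whether the outer membrane of mitochondria is opened, the step that releases cytochrome c and starts caspase activation. BCL2, BCL-xL (the product of Bcl2l1) and MCL1 hold the pore formers BAX and BAK in check. BH3-only proteins, among them BIM (from Bcl2l11), BAD, BID, BMF and BIK, either bind the survival proteins or activate the pore formers. In mice, Mcl1 is needed for the survival of hematopoietic stem cells, whereas Bcl2l1 is needed for maturing red cells and for platelets.

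All 31 libraries held 19331663 to 39485556 counts, with 21717 to 23713 genes detected. The labels do not say whether replicates came from separate mice, so p-values measure only the spread between these libraries. None of 12 stem cell markers (among them Procr, Slamf1, Mecom and Kit) was at 0 in any group. The 15 red cell markers summed to 17637 to 223626 CPM per library and the 15 neutrophil markers to 42241 to 260819 CPM. Genes of mature cells were thus abundant in libraries labelled as HSC or MPP. Because the totals are scaled, CPM are not exact shares of a library. In bulk libraries, fewer cells of a type and less RNA per cell cannot be told apart. At day 28, HSC library 2 of PBS mice stood apart from the other 3, with the lowest megakaryocyte marker sum of its group (342 CPM) and the highest sum of proliferation markers (4630 CPM).

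Bcl2l1 carried the largest called changes among the 9 genes, so the promoter windows of that gene are printed. Bcl2l1 (ENSMUSG00000007659) lies on the minus strand of chromosome 2 at 152780668 to 152831728 (mm10), with 5 exon blocks. The other members called in a comparison are Bcl2 on chromosome 1 at 106538178 to 106714274, Mcl1 on chromosome 3 at 95658788 to 95663176, Bad on chromosome 19 at 6941861 to 6951898, Bid on chromosome 6 at 120891930 to 120916853 and Bmf on chromosome 2 at 118528757 to 118549687. RefSeq (GRCm38.p6) gives windows for 3 starts, each of 250 bases before and 50 bases after the start, written 5′ to 3′ on the minus strand. Capitals mark a match to a searched motif, read on either strand.
Bcl2l1 window at chr2:152828440-152828739: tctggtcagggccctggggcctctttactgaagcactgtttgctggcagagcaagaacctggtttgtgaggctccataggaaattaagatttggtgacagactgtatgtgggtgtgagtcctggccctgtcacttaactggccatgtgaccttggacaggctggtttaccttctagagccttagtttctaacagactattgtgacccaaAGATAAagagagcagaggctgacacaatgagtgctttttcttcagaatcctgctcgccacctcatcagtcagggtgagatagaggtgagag
Bcl2l1 window at chr2:152830668-152830967: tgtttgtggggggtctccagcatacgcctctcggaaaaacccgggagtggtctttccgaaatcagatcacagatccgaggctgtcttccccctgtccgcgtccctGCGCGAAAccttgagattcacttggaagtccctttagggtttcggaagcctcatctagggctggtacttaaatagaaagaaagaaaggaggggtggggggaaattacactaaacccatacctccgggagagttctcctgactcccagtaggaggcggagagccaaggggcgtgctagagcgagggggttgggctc
Bcl2l1 window at chr2:152831679-152831978: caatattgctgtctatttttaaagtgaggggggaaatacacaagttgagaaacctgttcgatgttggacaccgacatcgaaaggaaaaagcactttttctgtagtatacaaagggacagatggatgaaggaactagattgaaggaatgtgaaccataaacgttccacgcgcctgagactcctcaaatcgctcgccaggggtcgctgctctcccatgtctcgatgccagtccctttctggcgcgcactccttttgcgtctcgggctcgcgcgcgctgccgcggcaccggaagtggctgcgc
The window at chr2:152828440-152828739 held the GATA motif AGATAA at base 210, a motif found in 11.2% of all 32851 RefSeq windows. The window at chr2:152830668-152830967 held the E2F motif TTTCGCGC, on the opposite strand, at base 106, and 0.323% of all windows hold it. The third window held none of the 5 motifs searched, and the STAT motif TTCNNNGAA, present in 8.3% of all windows, was in none of the 14 windows found for 8 members. The forkhead motif GTAAACA (3.65% of all windows) matched 1 of the windows of Bcl2l11, and the ETS motif CAGGAAG (13.3%) matched the window of Bid. A match is a string of letters and not a measured binding site.

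Per kb of exon, Bcl2l1 was the highest of the 9 genes in all 8 groups. Its level was 35.2 CPM per kb in HSC of β-glucan mice at day 7 and 118 CPM per kb in HSC of β-glucan mice at day 28, the ends of its range over groups. Bad (23.6 to 32.0 CPM per kb over groups), Bid (19.6 to 29.7) and Mcl1 (12.2 to 21.6) took ranks 2 to 4 in every group, in varying order. Bcl2 followed at rank 5 in every group, with 2.19 to 3.92 CPM per kb. Bak1 (1.41 to 2.38) and Bcl2l11 (1.09 to 2.12) had similar levels, and Bmf (0.192 to 0.409) and Bik (0.231 to 0.409) were the lowest. Bik had 2 to 20 counts per library and Bmf 22 to 100, so only large differences in these genes could be detected at this depth.

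**Figure D1:**
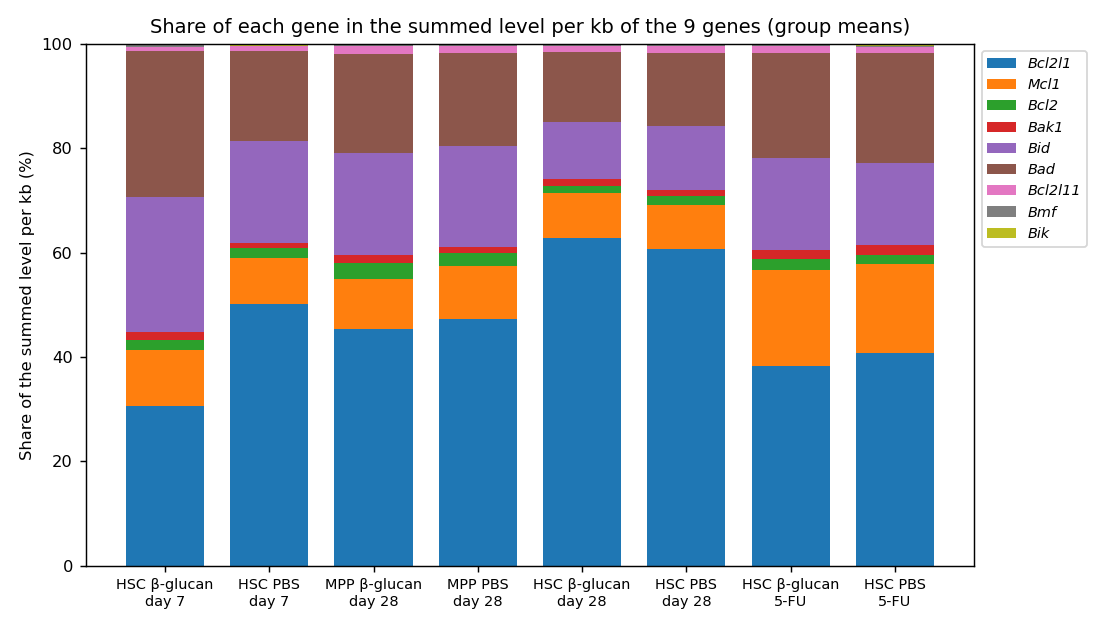
Stacked bars give the share (%) of each gene in the summed level per kb of exon of the 9 genes, as the mean over the 3 or 4 libraries of each group, with error left out. At day 7 Bcl2l1 took 30.7% in HSC of β-glucan mice and 50.2% in HSC of PBS mice, and at day 28 it took 62.7% in HSC of β-glucan mice and 60.8% in HSC of PBS mice.

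Of the 9 summed levels per kb, Bcl2l1 made up 30.7% ± 2.19 in HSC of β-glucan mice at day 7 (SD, n = 3), against 50.2% ± 0.761 in those of PBS mice (n = 4). At day 28 its share was 62.7% ± 3.29 in HSC of β-glucan mice and 60.8% ± 3.86 in those of PBS mice, and 45.4% ± 0.640 in MPP of β-glucan mice and 47.4% ± 2.20 in those of PBS mice (n = 4 each). After 5-FU it was 38.2% ± 3.30 in HSC of β-glucan mice and 40.7% ± 3.07 in those of PBS mice (n = 4 each). Mcl1, the gene of a short-lived survival protein, took 18.5% ± 1.81 and 17.1% ± 1.58 in the same 5-FU groups, and 8.35 to 10.6% in the other 6 groups. These shares are descriptions, and no test was run on them. Levels of different tables were set side by side only.

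**Figure D2:**
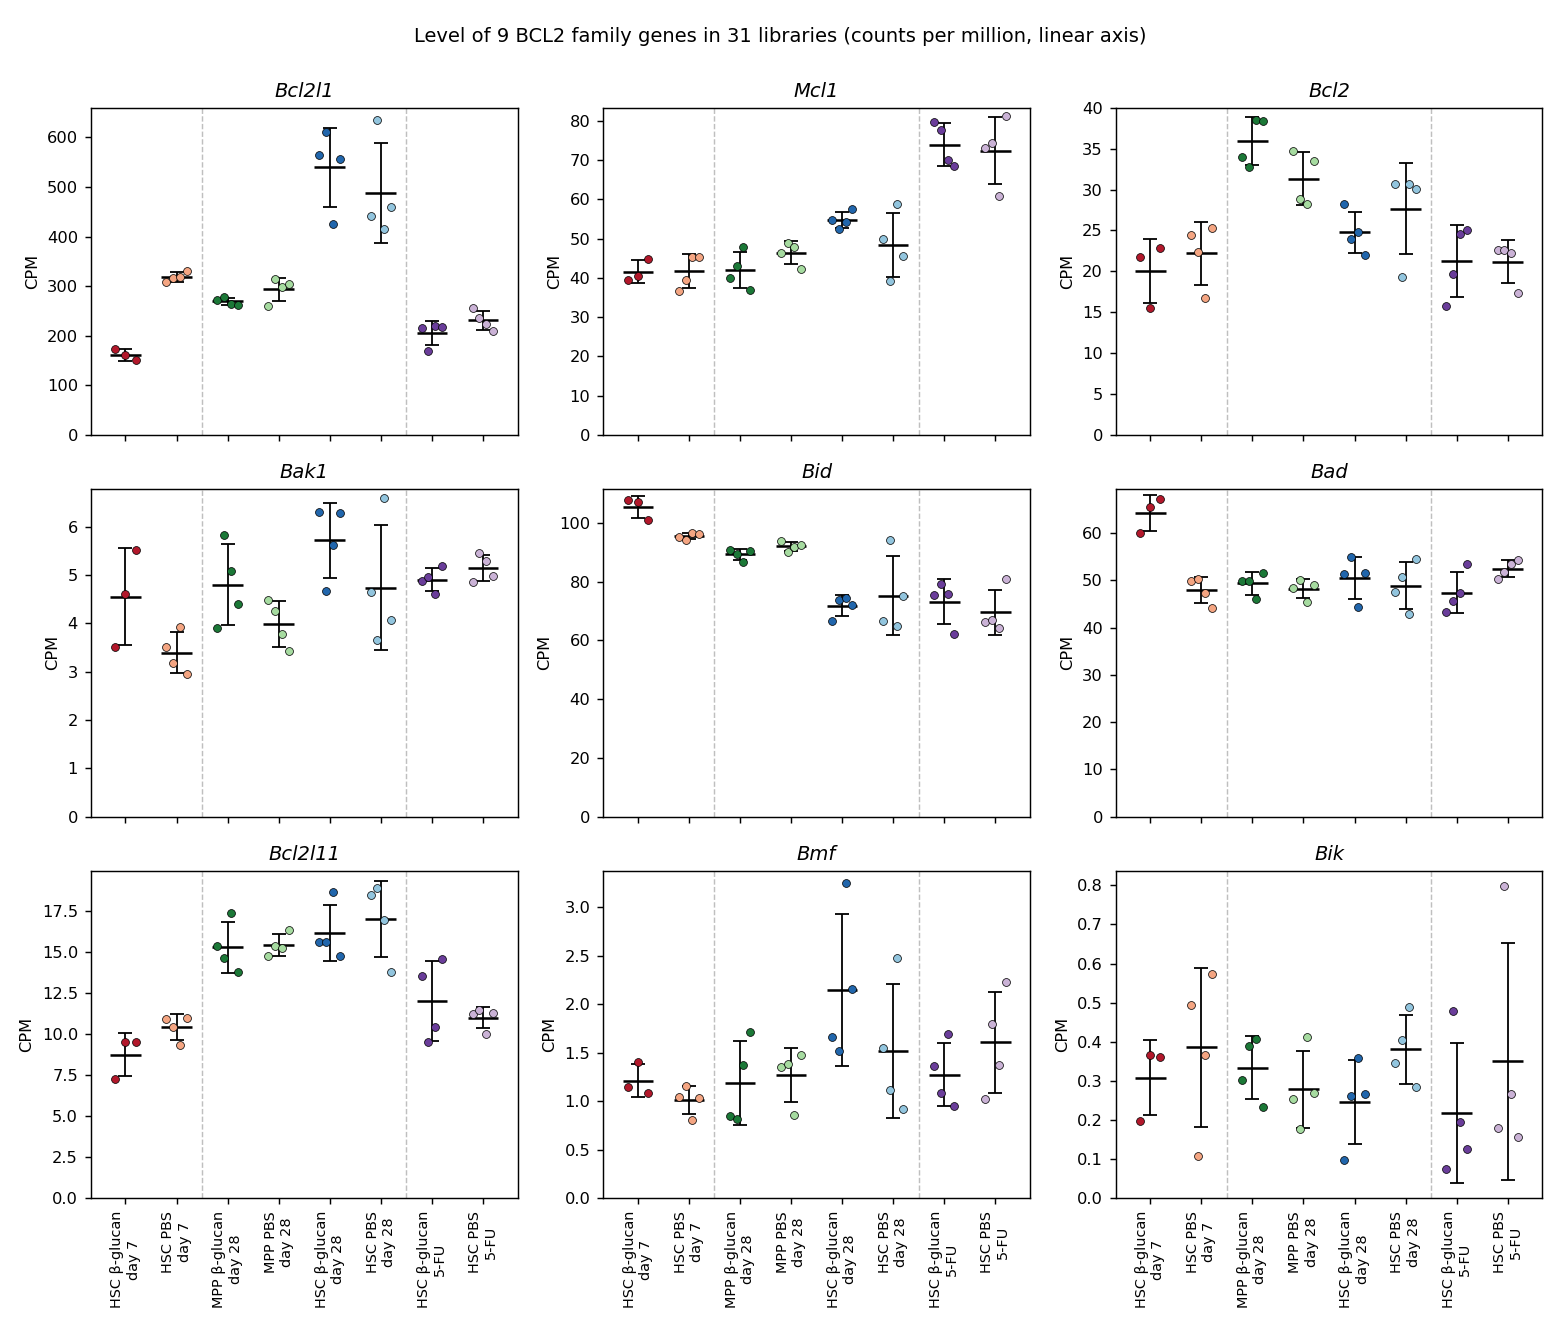
Each point is 1 library, the line is the group mean and the bar its SD (n = 3 or 4), in CPM on a linear axis that starts at 0, with dashed lines between the 3 count tables. At day 7 the Bcl2l1 libraries of β-glucan mice lie at 150 to 174 CPM, below all PBS libraries (308 to 331 CPM), while those of Bad lie above theirs.

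β-glucan against PBS in HSC at day 7 asks how the stem cell compartment differs soon after the injection. The survival gene Bcl2l1 fell and the BH3-only gene Bad rose, and the other 7 members did not pass the test. Bcl2l1 had 174, 161 and 150 CPM in the 3 β-glucan libraries, against 308, 316, 319 and 331 CPM in the 4 PBS libraries. Every β-glucan library was below every PBS library. The log2 fold change was -0.98 ± 0.07 (SE), a fold of 0.507, with an adjusted p of 0.000052 (quasi-likelihood test of edgeR, p-values adjusted by Benjamini and Hochberg's method), rank 9 by p among 16403 genes tested. Over all genes, 6.72% were called at an adjusted p under 0.05 (2.83% higher and 3.88% lower), beside 2 of the 9 members.

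Bad, whose product is switched off by phosphorylation when growth factors signal, had 60.1, 65.6 and 67.3 CPM in the β-glucan libraries and 49.8, 50.3, 47.4 and 44.2 CPM in the PBS libraries. These groups did not overlap either. Its log2 fold change was 0.42 ± 0.09 (adjusted p = 0.0131, edgeR). The call was lost without β-glucan library 2 (adjusted p = 0.0581) or β-glucan library 3 (adjusted p = 0.0758), and with the replicate number as a block (adjusted p = 0.0705). The sample preparation does not mark strand, and 25.8% of the exon bases of Bad lie over the opposite-strand gene Gpr137, so reads of the pair cannot be told apart there. Gpr137 had 6261 counts over all libraries, against 45298 for Bad.

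Bid, which links death receptors to mitochondria once cleaved by caspase-8, had 108, 107 and 101 CPM in the β-glucan libraries and 95.3, 94.3, 96.6 and 96.2 CPM in the PBS libraries. The groups did not overlap, but the difference did not pass the test (log2 fold change 0.14 ± 0.07, adjusted p = 0.289, edgeR). Libraries failed to overlap for 3 of the 9 members and for 18.9% of all genes. Mcl1 averaged 41.5 ± 2.92 CPM in β-glucan libraries (n = 3) and 41.6 ± 4.31 CPM in PBS libraries (n = 4), with a 95% interval of the log2 fold change of -0.22 to 0.22. Bcl2 averaged 20.04 ± 3.97 CPM in β-glucan libraries and 22.2 ± 3.81 CPM in PBS libraries, with an interval of -0.51 to 0.21. Bak1 (log2 fold change 0.42 ± 0.21, adjusted p = 0.292) and Bcl2l11 (-0.25 ± 0.15, adjusted p = 0.407) were not called by edgeR. Neither were Bmf (0.26 ± 0.28, adjusted p = 0.677) and Bik (-0.32 ± 0.56, adjusted p = 0.824).

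Markers of other cell types moved in the same comparison. The 15 red cell markers, none at 0 in either group, summed to 17637 to 23108 CPM in β-glucan libraries and 48441 to 60514 CPM in PBS libraries, and 14 of the 15 fell. Neutrophil markers summed to 60952 to 94165 CPM in β-glucan libraries and 42241 to 48326 CPM in PBS libraries, and 11 of 15 rose. The 15 B cell markers summed to 933 to 1378 CPM in β-glucan libraries and 1821 to 1983 CPM in PBS libraries, and 14 fell. Of 12 monocyte and macrophage markers (5291 to 8432 CPM in β-glucan libraries and 4355 to 5046 CPM in PBS libraries) 6 rose. Megakaryocyte markers summed to 534 to 813 CPM in β-glucan libraries and 563 to 649 CPM in PBS libraries. Of their 12 genes 11 had a positive log2 fold change and 1 was called, with a median of 0.71. Of 12 T and NK cell markers 1 rose and 1 fell, and of 12 proliferation markers 4 fell. Of 12 stem cell markers 1 rose and 1 fell, and they summed to 1042 to 1419 CPM in β-glucan libraries. The stem cell sum was 1306 to 1436 CPM in PBS libraries. None of the markers of these lists was at 0 in either group. Their part in the fall of Bcl2l1 and the rise of Bad was not tested. With the haemoglobin genes taken out of the counts, the log2 fold change of Bcl2l1 was -0.97 ± 0.07 (adjusted p = 0.000068, edgeR). This step changes the scaling and removes no other RNA of red cells, so it does not test their part.

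Of the rest of the family, 13 of 16 listed genes could be tested, and 1 fell: Bnip3l, which marks mitochondria for removal in maturing red cells, averaged 137 CPM in β-glucan libraries and 210 CPM in PBS libraries (log2 fold change -0.62 ± 0.10, adjusted p = 0.00396, edgeR). The median log2 fold change was -0.06 for these 13 genes and -0.01 for all genes. None of 16 tested genes of the apoptosome and caspase list passed the test, at an adjusted p under 0.05. Of 6 caspase inhibitors, Birc6 fell (41.3 CPM in β-glucan and 64.8 CPM in PBS libraries, -0.65 ± 0.14, adjusted p = 0.0150). Of 11 death receptor pathway genes, Mlkl, the executor of necroptosis, rose (44.4 CPM in β-glucan and 31.03 CPM in PBS libraries, 0.51 ± 0.09, adjusted p = 0.00524). Of 17 genes known to regulate the members, 2 fell: Foxo3, a forkhead factor known to induce Bcl2l11, averaged 70.5 CPM in β-glucan and 112 CPM in PBS libraries (-0.68 ± 0.13, adjusted p = 0.00880), and Usp9x, a deubiquitinase of MCL1, 13.2 and 18.3 CPM (-0.47 ± 0.13, adjusted p = 0.0491).

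**Figure D3:**
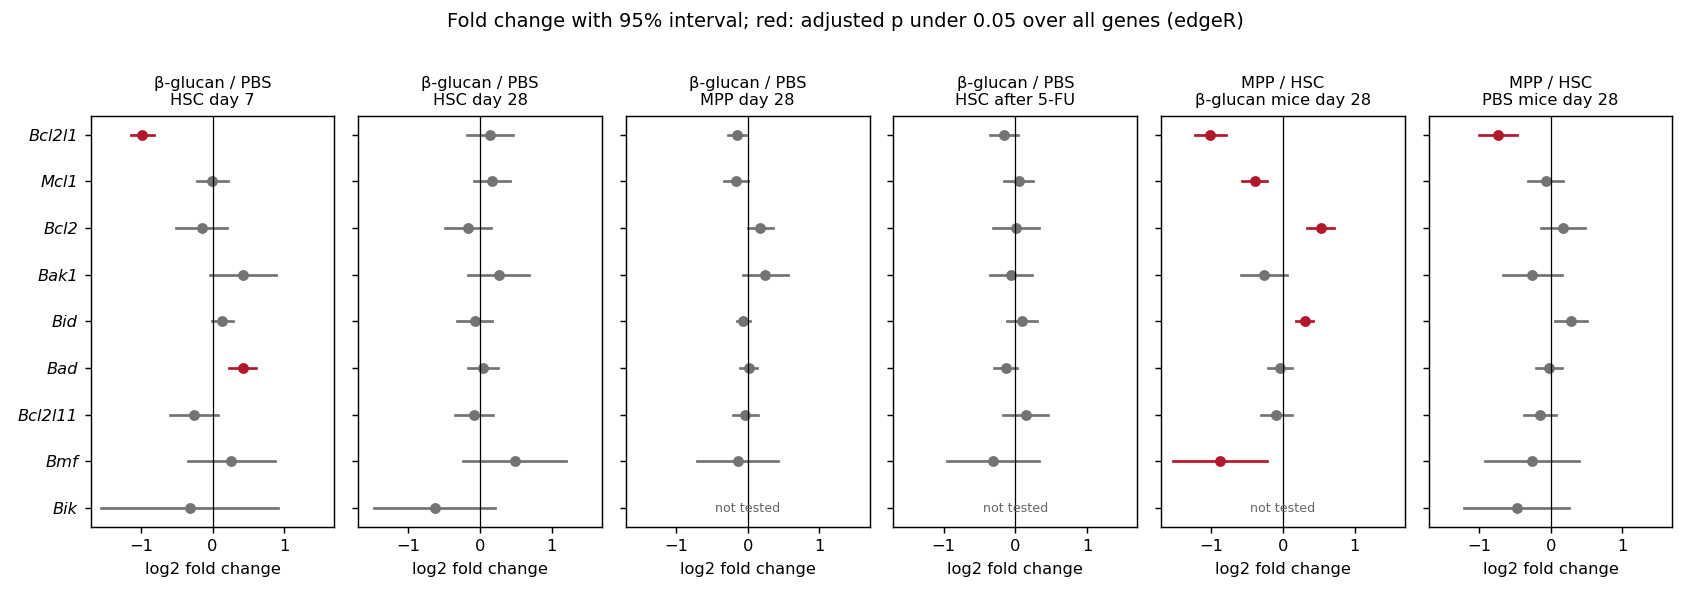
Points are log2 fold changes of the 9 genes in 6 comparisons and lines their 95% intervals (edgeR), with red for an adjusted p under 0.05 over all genes. Bcl2l1 is red and left of 0 in HSC at day 7 and in both comparisons of MPP with HSC, and the other 3 comparisons of β-glucan with PBS hold no red point.

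β-glucan against PBS in HSC at day 28 asks whether a difference is present 28 days after the injection. No member passed the test, and none had groups that did not overlap. Bcl2l1 had 564, 611, 425 and 557 CPM in the β-glucan libraries, against 441, 636, 414 and 461 CPM in the PBS libraries. β-glucan library 3 was as low as the PBS libraries, and PBS library 2 was the highest of all 8. The log2 fold change was 0.14 ± 0.15, with a 95% interval of -0.18 to 0.45. Of the 9 members 0 were called by edgeR, by DESeq2 or by limma voom, and 0 had an unadjusted p under 0.05. Over all genes 0.0374% were called by edgeR (6 genes, against 589 by DESeq2 and 598 by limma voom), 17.0% had an unadjusted p under 0.05, and 8.71% had groups that did not overlap. Without PBS library 2 and β-glucan library 3 together, Bcl2l1 rose by 0.39 ± 0.06 on the log2 scale (adjusted p = 0.0159, edgeR). These libraries were chosen after seeing the data because the count of called genes rose without each, and they are also the extremes of Bcl2l1 toward the other group. The value without both is therefore no independent evidence.

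Mcl1 had 54.7, 52.4, 54.1 and 57.5 CPM in the day 28 HSC libraries of β-glucan mice and 49.8, 39.3, 58.7 and 45.6 CPM in those of PBS mice. The PBS libraries spread on both sides of the β-glucan libraries (log2 fold change 0.17 ± 0.11). The day 7 rise of Bad was not seen: it averaged 50.6 ± 4.47 CPM in β-glucan libraries and 48.9 ± 4.95 CPM in PBS libraries (n = 4 each). Intervals of the log2 fold change reached from -0.17 to 0.25 for Bad, -0.32 to 0.17 for Bid, -0.50 to 0.16 for Bcl2 and -0.35 to 0.18 for Bcl2l11. Bak1 (-0.17 to 0.68), Bmf (-0.23 to 1.20) and Bik (-1.47 to 0.21) had wider intervals. Of the lists of the rest of the family, the caspases, their inhibitors, the death receptors and the regulators, 0 genes were called by edgeR. No cell type marker was called by edgeR either. An unadjusted p under 0.05 was found for 8 of 12 stem cell markers (median log2 fold change -0.37) and 8 of 12 T and NK cell markers (median -0.31). The count was 11 of 15 for B cell, 7 of 15 for neutrophil, 4 of 15 for red cell and 4 of 12 for monocyte and macrophage markers. It was 0 of 12 for megakaryocyte and 3 of 12 for proliferation markers, beside 17.0% of all genes. The part of these markers in the values of the members was not tested.

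The effects at the 2 times were compared directly. The β-glucan effect on Bcl2l1 was higher at day 28 than at day 7 by 1.09 ± 0.18 on the log2 scale (adjusted p = 0.00245, edgeR), the only member called, beside 4.82% of all 17977 genes tested (2.24% higher and 2.58% lower). Markers of several cell types were called in this difference too. Higher at day 28 were 13 of 15 red cell markers (median difference 1.12) and 12 of 15 B cell markers (1.05). Also higher were 3 of 12 proliferation and 1 of 12 T and NK cell markers. Lower were 11 of 15 neutrophil markers (median -1.07), 5 of 12 monocyte and macrophage markers (-0.54) and 1 of 12 megakaryocyte markers (-0.56). Of the stem cell markers 1 of 12 was called, lower, and their median was -0.37. The part of all these markers in the difference of Bcl2l1 was not tested. For Bad the difference was -0.41 ± 0.13 (adjusted p = 0.0843). It was 0.15 ± 0.16 for Mcl1, -0.04 ± 0.23 for Bcl2, 0.14 ± 0.19 for Bcl2l11, -0.24 ± 0.14 for Bid, 0.20 ± 0.44 for Bmf, -0.34 ± 0.67 for Bik and -0.19 ± 0.29 for Bak1. Of the lists of the rest of the family, the caspases, their inhibitors, the death receptors and the regulators, Birc6 (0.73 ± 0.17, adjusted p = 0.0193) and Foxo3 (0.77 ± 0.18, adjusted p = 0.0164) were called. The times differ in count table as well as in day, and each effect was taken within its own table.

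β-glucan against PBS in MPP at day 28 asks the same of the next progenitor stage. Of the 8 members tested (Bik was too low), 0 were called by edgeR, DESeq2 or limma voom, and 1 had an unadjusted p under 0.05, beside 4.63% called among all genes by edgeR and 19.3% with an unadjusted p under 0.05. Groups did not overlap for 0 of the 8, and for 12.3% of all genes. Bcl2l1 had 272, 278, 265 and 261 CPM in the β-glucan libraries and 261, 314, 298 and 304 CPM in the PBS libraries. All β-glucan libraries were below 3 of the 4 PBS libraries, and PBS library 1 was the lowest of all 8. That library is titled MPP, but its cell type tag says HSC. The log2 fold change was -0.15 ± 0.06 with an adjusted p of 0.168 (edgeR).

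The other survival genes in MPP were Mcl1 (41.9 ± 4.59 CPM in β-glucan and 46.4 ± 2.93 CPM in PBS libraries, n = 4 each) and Bcl2 (35.9 ± 2.93 and 31.3 ± 3.26 CPM). Neither passed the test (adjusted p = 0.262 for Mcl1 and 0.267 for Bcl2, edgeR). Bad averaged 49.4 ± 2.36 and 48.3 ± 2.05 CPM, and its interval of -0.11 to 0.13 was among the narrowest. Bid (-0.16 to 0.03) and Bcl2l11 (-0.21 to 0.14) had narrow intervals too, and those of Bmf (-0.71 to 0.43) and Bak1 (-0.07 to 0.56) were wider. Of 11 death receptor pathway genes, Tradd, the adaptor of the TNF receptor, rose (28.2 CPM in β-glucan and 14.9 CPM in PBS libraries, 0.90 ± 0.16, adjusted p = 0.0131, edgeR). No gene of the other family and pathway lists was called. Markers of other cell types did move in MPP: 12 of 15 B cell, 8 of 15 neutrophil, 6 of 12 T and NK cell and 4 of 12 monocyte and macrophage markers fell, while 4 of 11 tested megakaryocyte markers rose. Of the 15 red cell markers Klf1 was called, and it rose, but 12 had a negative log2 fold change (median -0.15). An unadjusted p under 0.05 was found for 10 of the 15, beside 19.3% of all genes. B cell markers summed to 3307 to 4099 CPM in β-glucan and 3819 to 4482 CPM in PBS libraries, and neutrophil markers to 51467 to 66431 CPM in β-glucan and 64743 to 80962 CPM in PBS libraries. The red cell sum was 122020 to 170347 CPM in β-glucan and 157019 to 194170 CPM in PBS libraries. Their part in the values of the members was not tested. Between the β-glucan effects in MPP and in HSC, 0 of 9 members differed by edgeR, DESeq2 or limma voom and 1 had an unadjusted p under 0.05 (Mcl1, -0.34 ± 0.14, adjusted p = 0.797), beside 0.00599% of 16691 genes called by edgeR and 6.19% with an unadjusted p under 0.05. The difference was -0.29 ± 0.17 for Bcl2l1, 0.34 ± 0.18 for Bcl2, -0.63 ± 0.45 for Bmf and 0.89 ± 0.51 for Bik, and at most 0.05 in size for Bcl2l11, Bad, Bid and Bak1.

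β-glucan against PBS in HSC after 5-FU asks about stem cells that recover from loss of dividing cells. Of 8 members tested 0 were called by edgeR, DESeq2 or limma voom, 0 had an unadjusted p under 0.05, and 0 had groups that did not overlap. Among all genes 0.0446% were called by edgeR (7 genes, against 147 by DESeq2 and 42 by limma voom), 7.54% had an unadjusted p under 0.05 and 4.74% had groups that did not overlap. Bcl2l1 had 216, 169, 219 and 218 CPM in the β-glucan libraries and 256, 236, 223 and 210 CPM in the PBS libraries. PBS library 4 lay below 3 of the β-glucan libraries. The log2 fold change was -0.16 ± 0.09, with a 95% interval of -0.36 to 0.04.

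Mcl1 had 79.7, 77.7, 70.0 and 68.4 CPM in the β-glucan libraries after 5-FU, and 73.1, 74.5, 60.8 and 81.1 CPM in the PBS libraries. These 8 values lie above all 23 values of the other groups, which ended at 58.7 CPM, but 5-FU and count table changed together and cannot be told apart. Neutrophil markers were also highest in these libraries, at 175322 to 260819 CPM, and no marker of that list was at 0. Their part in the level of Mcl1 was not tested. Intervals of the log2 fold change after 5-FU were -0.15 to 0.24 for Mcl1, -0.31 to 0.33 for Bcl2, -0.29 to 0.03 for Bad and -0.12 to 0.30 for Bid. Those of Bcl2l11 (-0.17 to 0.45), Bak1 (-0.35 to 0.24) and Bmf (-0.96 to 0.32) spanned 0 as well. Bik, too low to be tested, averaged 0.218 ± 0.180 CPM in β-glucan libraries and 0.350 ± 0.303 CPM in PBS libraries (n = 4 each). No gene of the other family and pathway lists was called. Of the red cell markers 0 of 15 were called by edgeR and 10 had an unadjusted p under 0.05, with a median log2 fold change of -0.33. No other cell type marker was called. An unadjusted p under 0.05 was found for 5 of 12 T and NK cell markers (11 of 12 positive, median 0.43). It was found for 4 of 12 megakaryocyte (median -0.26) and 4 of 12 monocyte and macrophage markers (0.13). The count was 2 of 15 for B cell, 1 of 12 for stem cell and 0 for neutrophil and proliferation markers, beside 7.54% of all genes. The part of these markers in the values of the members was not tested. The β-glucan effect after 5-FU and that at day 28 differed for 0 of 9 members by edgeR, DESeq2 or limma voom, 0 with an unadjusted p under 0.05, beside 0.106% of 16985 genes called by edgeR and 11.3% with an unadjusted p under 0.05. The difference ranged from -0.82 ± 0.46 for Bmf to 0.21 ± 0.19 for Bcl2l11, and was -0.31 ± 0.18 for Bcl2l1. In this difference 1 of 12 T and NK cell markers was called, higher after 5-FU. An unadjusted p under 0.05 was found for 10 of the 12 (median 0.77) and for 5 of 12 monocyte and macrophage markers (0.26). No marker of the other cell type lists was called.

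MPP against HSC asks how the survival genes differ between stem cells and the progenitors made from them. In β-glucan mice 5 of 8 tested members were called, with Bcl2 and Bid higher in MPP and Bcl2l1, Mcl1 and Bmf lower. In PBS mice 1 of 9 was called, Bcl2l1, lower in MPP. Among all genes 35.6% were called in β-glucan mice (17.7% higher and 18.0% lower) and 21.7% in PBS mice (9.58% higher and 12.1% lower). In PBS mice Bid was called as well under 7 of 16 alternatives, which makes 2 of 9 members. With so few members nothing is read from these counts against the shares of all genes. Libraries did not overlap for 4 of 8 tested members in β-glucan mice (34.2% of all genes) and for 1 of 9 in PBS mice (26.3%).

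In β-glucan mice, Bcl2l1 had 272, 278, 265 and 261 CPM in MPP, against 564, 611, 425 and 557 CPM in HSC (log2 fold change -1.02 ± 0.10, adjusted p = 0.000049, edgeR). In PBS mice it had 261, 314, 298 and 304 CPM in MPP, against 441, 636, 414 and 461 CPM in HSC (-0.74 ± 0.12, adjusted p = 0.00180). All MPP libraries of both kinds of mice were below all HSC libraries. Both comparisons kept the call with any single library left out.

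Bcl2 moved the other way in β-glucan mice, with 34.0, 32.8, 38.5 and 38.3 CPM in MPP and 28.2, 24.0, 24.8 and 22.1 CPM in HSC. Every MPP library was above every HSC library (log2 fold change 0.53 ± 0.09, adjusted p = 0.00102, edgeR). In PBS mice it averaged 31.3 ± 3.26 CPM in MPP and 27.7 ± 5.59 CPM in HSC (n = 4 each), and the libraries overlapped (0.17 ± 0.14, adjusted p = 0.418). Mcl1 had 39.9, 43.1, 47.7 and 37.0 CPM in MPP and 54.7, 52.4, 54.1 and 57.5 CPM in HSC of β-glucan mice (-0.40 ± 0.08, adjusted p = 0.00259), with no overlap. In PBS mice the 95% interval for Mcl1 was -0.32 to 0.18. The difference between the β-glucan and PBS comparisons is the difference of effects given above, in which no member was called.

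Bid had 90.9, 89.4, 86.6 and 90.5 CPM in MPP and 66.7, 73.8, 74.6 and 72.2 CPM in HSC of β-glucan mice (0.30 ± 0.06, adjusted p = 0.00173, edgeR). In PBS mice it had 93.8, 90.2, 91.7 and 92.6 CPM in MPP and 66.6, 94.2, 64.8 and 75.3 CPM in HSC, where only library 2 reached the MPP libraries (0.29 ± 0.10, adjusted p = 0.0701). Without that library the value was 0.41 with an adjusted p of 0.000519. The exons of Bid share 17.7% of their bases with the opposite-strand gene Bcl2l13, itself lower in MPP. Bmf, a BH3-only gene linked to the cytoskeleton, averaged 1.19 ± 0.436 CPM in MPP and 2.15 ± 0.785 CPM in HSC of β-glucan mice, with overlapping libraries and 25 to 100 counts (-0.88 ± 0.30, adjusted p = 0.0405, edgeR). In PBS mice it averaged 1.27 ± 0.279 CPM in MPP and 1.52 ± 0.694 CPM in HSC (-0.26 ± 0.30, adjusted p = 0.577). Bik averaged 0.278 ± 0.0982 CPM in MPP and 0.381 ± 0.0876 CPM in HSC of PBS mice (-0.47 ± 0.33, adjusted p = 0.341), and in β-glucan mice, where it was too low to be tested, 0.334 ± 0.0809 CPM in MPP and 0.246 ± 0.108 CPM in HSC. The Bmf call in β-glucan mice was lost without HSC library 3 (adjusted p = 0.113) or 4 (0.0713), or MPP library 1 (0.101) or 2 (0.109). Bad (interval -0.21 to 0.12 in β-glucan mice and -0.20 to 0.15 in PBS mice), Bcl2l11 (-0.31 to 0.13 and -0.38 to 0.08) and Bak1 (-0.59 to 0.06 and -0.67 to 0.16) did not pass in either.

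Markers of other cells moved here as well. Of 15 red cell markers, 13 fell in MPP of β-glucan mice and 11 in MPP of PBS mice. They summed to 122020 to 170347 CPM in MPP and 171976 to 190508 CPM in HSC of β-glucan mice, and to 157019 to 194170 CPM in MPP and 196110 to 223626 CPM in HSC of PBS mice. Megakaryocyte markers summed to 150 to 216 CPM in MPP and 369 to 942 CPM in HSC of β-glucan mice, and to 135 to 150 CPM in MPP and 342 to 789 CPM in HSC of PBS mice. Of the tested markers of that list 11 of 12 and 10 of 11 fell, and none was at 0. Among all genes, 17.7% were called higher and 18.0% lower in β-glucan mice, and 9.58% and 12.1% in PBS mice. Of the neutrophil markers 10 of 15 fell in β-glucan mice and 5 of 15 in PBS mice. Of the stem cell markers 7 of 12 and 6 of 11 fell, and 2 and 1 rose. Stem cell markers summed to 491 to 540 CPM in MPP and 487 to 523 CPM in HSC of β-glucan mice. In PBS mice the stem cell sums were 511 to 576 CPM in MPP and 616 to 737 CPM in HSC. T and NK cell markers rose for 3 of 12 and 2 of 12, and fell for 1 and 0. Proliferation markers rose for 2 of 12 and 3 of 12, and fell for 2 and 0. B cell markers rose for 5 of 15 and 8 of 15, and monocyte and macrophage markers for 6 of 12 and 5 of 12. B cell markers summed to 3307 to 4099 CPM in MPP and 1559 to 2014 CPM in HSC of β-glucan mice. The part of all these in the differences of Bcl2l1, Bcl2, Mcl1, Bid and Bmf was not tested.

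Among the rest of the family, 3 of 14 tested genes rose and 3 fell in MPP of β-glucan mice, and 1 of 12 rose and 2 fell in MPP of PBS mice. Beside the 35.6% and 21.7% of all genes called, nothing is read from these counts or from those of the pathway lists. The median log2 fold change of the family list was 0.21 in β-glucan and 0.12 in PBS mice, against -0.01 and -0.02 for all genes. Bnip3l averaged 131 CPM in MPP and 170 CPM in HSC of β-glucan mice (-0.39 ± 0.06, adjusted p = 0.000414, edgeR), and 141 and 198 CPM in PBS mice (-0.49 ± 0.10, adjusted p = 0.00559). Bcl2l13, a mitophagy receptor, fell in both (-0.27 ± 0.07 in β-glucan and -0.40 ± 0.08 in PBS mice). Bcl2a1d, a survival gene with near-identical copies that make its counts uncertain, rose in both (0.55 ± 0.10 and 0.52 ± 0.13). Pmaip1, the gene of the BH3-only protein NOXA, was called higher in β-glucan mice (5.73 CPM in MPP and 3.65 CPM in HSC, 0.64 ± 0.14, adjusted p = 0.00441), as was Bcl2l14 (1.01 ± 0.29), while Bbc3, the gene of PUMA, was called lower (0.254 CPM in MPP and 0.563 CPM in HSC, -1.13 ± 0.33). Whether these differ between β-glucan and PBS mice is asked by the difference of effects, in which none of them was called. Only 0.00599% of 16691 genes were called in it by edgeR, so the lack of a call does not show that the mice are alike.

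Downstream of the family, 4 of 16 tested apoptosome and caspase genes rose and 2 fell in MPP of β-glucan mice, and 2 rose and 2 fell in MPP of PBS mice (median 0.09 and 0.11), beside 35.6% and 21.7% of all genes called. Apaf1, the scaffold of the apoptosome, averaged 14.6 CPM in MPP and 22.0 CPM in HSC of β-glucan mice (-0.61 ± 0.09, adjusted p = 0.00047, edgeR), and 13.2 and 19.7 CPM in PBS mice (-0.58 ± 0.16, adjusted p = 0.0260). Casp8, which cleaves BID, rose in both (0.39 ± 0.06 in β-glucan and 0.22 ± 0.06 in PBS mice), as did Diablo, an antagonist of caspase inhibitors (0.29 ± 0.06 and 0.25 ± 0.07). Htra2 (-0.50 ± 0.10 and -0.32 ± 0.08) and the inhibitor Birc6 (-0.38 ± 0.10 and -0.36 ± 0.08) fell in both. In the death receptor list, 3 rose and 2 fell of 11 in β-glucan mice, and 2 rose and 3 fell in PBS mice. The necroptosis genes Ripk3 (0.41 ± 0.08 and 0.36 ± 0.07) and Mlkl (0.44 ± 0.08 and 0.34 ± 0.08) rose in both. Tradd fell in MPP of PBS mice (14.9 CPM in MPP and 26.6 CPM in HSC, -0.85 ± 0.13, adjusted p = 0.00132).

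Of 17 regulators, 2 rose and 7 fell in MPP of β-glucan mice, and 1 rose and 3 fell in MPP of PBS mice (median -0.16 and -0.12), beside 35.6% and 21.7% of all genes called. Foxo3 averaged 71.7 CPM in MPP and 126 CPM in HSC of β-glucan mice (-0.82 ± 0.11, adjusted p = 0.000283, edgeR), and 70.5 and 115 CPM in PBS mice (-0.71 ± 0.08, adjusted p = 0.000168). Gata1, the red cell and megakaryocyte factor known to induce Bcl2l1, fell in both (-0.47 ± 0.07 and -0.49 ± 0.09), and so did Jak2 (-0.62 ± 0.08 and -0.45 ± 0.13). Trp53 rose in both (0.25 ± 0.06 and 0.27 ± 0.07). The comparison in β-glucan mice and that in PBS mice share no library, but both share libraries with the comparisons of β-glucan and PBS at day 28.

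**Figure D4:**
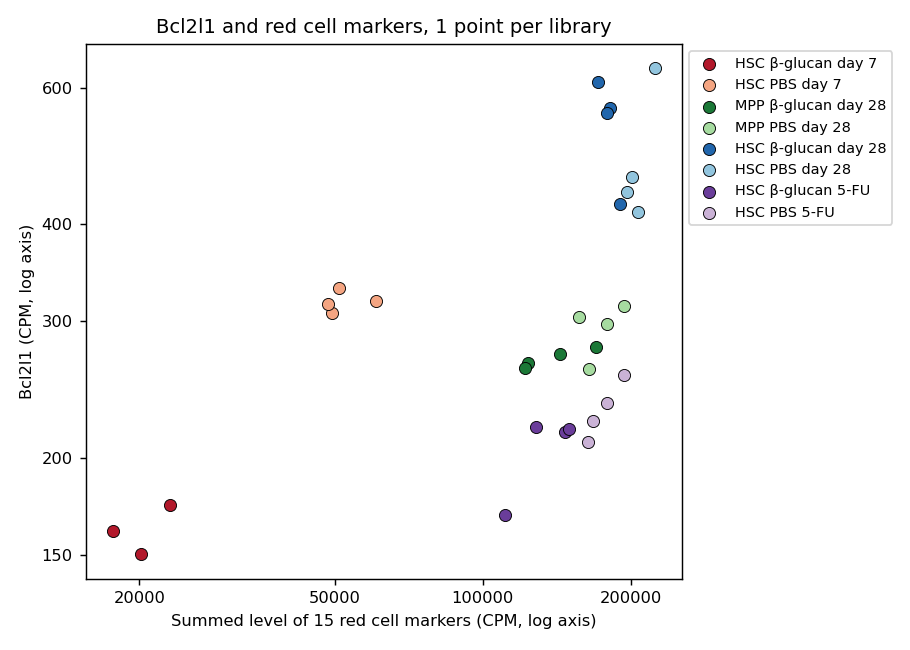
Each point is 1 library, with the summed CPM of 15 red cell markers on the x axis and Bcl2l1 in CPM on the y axis, both on log axes. At day 7 the β-glucan libraries lie below the PBS libraries on both axes. In HSC of PBS mice at day 28, Bcl2l1 reaches 636 CPM. Their marker sums (196110 to 223626 CPM) lie above all those of MPP and of HSC after 5-FU. In HSC of β-glucan mice at day 28 it reaches 611 CPM, at marker sums of 171976 to 190508 CPM. These sums overlap those of MPP and of 5-FU HSC in PBS mice, and lie above those in β-glucan mice.

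Over the 31 libraries, with each count table centred on its own mean, the genes most like each member were listed among 9184 genes of sufficient level by the correlation of log2 CPM. The libraries share groups and tables, so these values are descriptions. Bcl2l1 was most like Yod1 (Pearson's r = 0.96), Ube2h (0.95) and Car2 (0.95), a carbonic anhydrase that is on the red cell marker list. Its r was 0.87 with the summed list of the rest of the family, 0.78 with that of caspase inhibitors, 0.75 with red cell markers, -0.73 with death receptor genes, 0.72 with regulators, 0.63 with megakaryocyte markers, -0.59 with the apoptosome and caspase list and 0.52 with proliferation markers. With the other 6 marker lists it lay between -0.36 and 0.37. The lists were summed in CPM, so their most abundant genes weigh most and r does not describe a list as a whole. In HSC of PBS mice at day 28, Bnip3l averaged 198 CPM of a family sum of 337 to 427 CPM. Birc5 averaged 173 CPM of an inhibitor sum of 368 to 471 CPM, and Hba-a1 86586 CPM of a red cell sum of 196110 to 223626 CPM. Bid was most like Traf3ip3 (0.88), Bad most like Dctn3 (0.84), Mcl1 most like Fosl2 (0.84) and Bcl2 most like Slc22a3 (0.81). Among the members themselves the strongest relation was an inverse one, between Bid and Bcl2l1 (r = -0.60), and Mcl1 and Bak1 had an r of 0.53. Most other pairs were weak.

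The order of the Bcl2l1 levels over groups was HSC of β-glucan mice at day 28 (539 ± 79.6 CPM), HSC of PBS mice at day 28 (488 ± 101), HSC of PBS mice at day 7 (318 ± 9.56), MPP of PBS mice (294 ± 23.2), MPP of β-glucan mice (269 ± 7.42), HSC of PBS mice after 5-FU (231 ± 19.6), HSC of β-glucan mice after 5-FU (206 ± 24.5) and HSC of β-glucan mice at day 7 (162 ± 11.8; SD, n = 4 but 3 for the last). The libraries of neighbours in that order did not overlap at only 2 steps, between HSC of PBS mice at day 28 and at day 7, and between MPP of β-glucan mice and HSC of PBS mice after 5-FU. Day 7, day 28 and 5-FU libraries are in different count tables, so a step between them cannot be told apart from one between tables. For Bcl2, Bcl2l11, Bmf, Bik and Bak1 every pair of neighbours overlapped. Bad stepped only between HSC of β-glucan mice at day 7 and the group after them in the order, and Mcl1 only between the 5-FU groups and the rest. Bid stepped between HSC of β-glucan and of PBS mice at day 7 and between HSC of PBS mice at day 7 and MPP of PBS mice.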

How the data were processed

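The values are whole-number gene counts that the authors deposited, in 3 tables (7, 16 and 8 libraries). Per the submitters' processing notes, bcl2fastq 1.8.4 demultiplexed the reads and featureCounts counted them on mm10. Per the labels' protocols, RNA was amplified with SMARTer Ultra, a kit without strand marks. Which aligner was used is not stated in these sources. Table columns name neither day nor 5-FU: tables were matched to titles by their make-up, and the initials P and G were taken for PBS and β-glucan. For library 1 of MPP of PBS mice the title says MPP and the tag says HSC, and the title was followed.

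Genes passing filterByExpr (minimum count 10) were scaled by TMM and tested with edgeR 4.0.16 (R 4.3.3), calling genes at a Benjamini-Hochberg adjusted p under 0.05, adjusted over the whole table. Intervals are 95%. Only the groups compared entered a fit, and differences of effects were contrasts of 4 groups. The SE is the absolute log2 fold change over the square root of F. Levels are CPM on TMM-scaled totals of all 31 libraries, per kb where divided by exon length. No duplicate was found among 45 replicate pairs (chi-square of counts 6.75 to 50.3 per gene). The procedure was tested on simulated data: in most comparisons, HSC at day 7 above all, the share of false calls was above the nominal one, so calls near the threshold are less firm there.

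The members and the 17 gene lists were chosen with earlier results of these data known. All 9 members are named in every comparison but the difference of effects after 5-FU minus day 28, where the range is given. Also named are up to 4 called genes of smallest p of each other list, all called genes of the rest of the family, and the genes most like several members. Alternatives were DESeq2 1.42.0 (Wald test, and its size factors), limma 3.58.1 voom with quality weights, no filter, a filter of CPM of at least 5, all 8 groups in 1 fit, a replicate block, haemoglobin genes left out and each library left out.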

Additional observations from a re-analysis of the deposited data

Results flagged for a closer look

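A library lay far from the other 3 of its group for 5 of 63 combinations of member and group of 4 libraries, because its gap to the nearest of the others passed Dixon's critical share of the group's range. Chance gives about 1 in 20. They were Bcl2 in HSC of PBS mice at day 28, library 2 (19.3 CPM); Bcl2l1 in HSC of β-glucan mice after 5-FU, library 2 (169 CPM); and, in HSC of PBS mice after 5-FU, Bcl2 in library 4 (17.3 CPM), Bid in library 4 (80.8 CPM) and Bcl2l11 in library 3 (10.0 CPM). Library 4 of PBS mice after 5-FU is thus named for 2 genes.

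The β-glucan effect on Bcl2l1 in HSC differed between times: it was higher at day 28 than at day 7 by 1.09 on the log2 scale, and every alternative run kept this call (24 of 24, 1.02 to 1.34).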

How the results depend on the processing

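Of 149 values of called members under the alternatives, 142 kept the call and direction, 7 lost the call and 0 changed sign. Of 1314 values of uncalled members, 12 were called and 64 changed sign. The fall of Bcl2l1 in HSC at day 7 was called under 15 of 15 alternatives (-1.02 to -0.94), and its lower level in MPP under 16 of 16 in β-glucan mice (-1.12 to -0.95) and 16 of 16 in PBS mice (-0.80 to -0.58). The rise of Bad at day 7 was called under 12 of 15.

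The number of called members moved at these points, and the cause was not tested. The labels do not say that replicate numbers pair libraries. In no comparison did every same-numbered pair correlate above 0.1. In MPP against HSC of β-glucan mice 3 of 4 pairs did, and the lowest was 0.0900. With a replicate block, members called in HSC at day 7 were 1 (Bad lost, adjusted p = 0.0705). In MPP against HSC of PBS mice they were 2, with Bid added, under the replicate block (adjusted p = 0.0486), no filter (0.0360), the CPM filter (0.0475), DESeq2 (0.0499), voom (0.00107) and all groups in 1 fit (0.0161). For day 28 minus day 7 they were 2 with all groups in 1 fit (Bad, adjusted p = 0.0321). With both day 28 HSC libraries left out, 1 member, Bcl2l1, was called in HSC at day 28, in the MPP minus HSC difference (-0.53, adjusted p = 0.0319) and in the 5-FU minus day 28 difference (-0.57, adjusted p = 0.0344). With each library left out in turn, members called ranged from 1 to 2 in HSC at day 7, 1 to 2 in MPP against HSC of PBS mice, 4 to 5 in β-glucan mice and 1 to 2 for day 28 minus day 7. Without library 3 of the day 28 HSC of PBS mice, Bad was called in that difference (adjusted p = 0.0396).

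Counts of called genes over the whole table moved more. In HSC at day 7 they were 1711 by DESeq2, 1744 by voom, 1971 with all groups in 1 fit, 645 with the replicate block and 500 to 1252 with each library left out. In HSC at day 28 they were 182 with no filter, 589 by DESeq2, 598 by voom, 525 with all groups, 14 with the block, 669 without both libraries and 1 to 51 with each left out. In MPP they were 1181 with no filter, 1301 by DESeq2, 228 with all groups and 164 to 1010 with each library left out. After 5-FU they were 110 with no filter, 16 with the CPM filter, 147 by DESeq2, 42 by voom, 94 with all groups, 16 with the block and 2 to 61 with each left out. For MPP against HSC of PBS mice they ranged from 2004 to 5050 with each left out. For the MPP minus HSC difference they were 2 with no filter, by DESeq2 or with all groups, 34 without both libraries and 1 to 3 with each left out. For day 28 minus day 7 they were 1432 by DESeq2, 1611 by voom, 1461 with all groups and 445 to 1051 with each left out. For 5-FU minus day 28 they were 59 with no filter, 151 by DESeq2, 118 by voom, 41 with all groups, 7 with the block, 274 without both libraries and 6 to 49 with each left out. In MPP against HSC of β-glucan mice, all 8 libraries correlated best with the library of their own number (r of same-numbered pairs 0.0900 to 0.179). For β-glucan against PBS at day 28 the count was 6 of 8 libraries in HSC and 5 of 8 in MPP. It was 4 of 8 for MPP against HSC of PBS mice, 0 of 7 at day 7 and 0 of 8 after 5-FU. These counts are a hint from the data and not the design. Bik was below the filter in 3 comparisons and was not tested there, and at the depth of the libraries the values of Bik and Bmf limit what could be detected.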
